A study of Saccharomyces cerevisiae with 12 samples.

Results

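Expression of 10 genes for the synthesis of sphingolipids and the turnover of their long chain bases was followed in *Saccharomyces cerevisiae* lacking *TUP1*, *CYC8* or both. The 10 genes, out of 6400 named in the count tables, were *SUR2*, *LCB1*, *LCB2*, *TSC10*, *LAG1*, *LAC1*, *SCS7*, *AUR1*, *IPT1* and *YSR3*. *SUR2* was chosen from its measured values, because its level moved in opposite directions in the *tup1* and *cyc8* mutants, so its values are a description and carry no test. The other 9 genes were chosen by their place in the pathway, and the question was whether the pathway shared the pattern of *SUR2*.

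The 4 strains were compared with 3 biological replicates each, which gave 12 libraries: *tup1* (tup1Δ::KanMX4), *cyc8* (cyc8Δ::KanMX4), *tup1 cyc8* (tup1Δ::KanMX4 cyc8Δ::URA3) and wt. Every strain was a *MATa* haploid with his3Δ1, leu2Δ0, met15Δ0 and ura3Δ0, so the controls carry these deletions too. Cells grew exponentially in YPD with 2% glucose to an OD600 between 0.6 and 0.8. Whether the replicates of a strain came from separate clones is not given in the sources used here.

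Tup1p and Cyc8p form a co-repressor complex that DNA-binding proteins bring to promoters. Yeast sphingolipids are built in the endoplasmic reticulum from serine and palmitoyl-CoA. Serine palmitoyltransferase makes a ketone that is reduced to the long chain base dihydrosphingosine, Sur2p hydroxylates this base to phytosphingosine, and ceramide synthase joins the base to a very long chain fatty acid. In the Golgi, ceramide receives an inositol phosphate head group and then mannose and a further inositol phosphate. Sphingolipids make up a large part of the plasma membrane, and free long chain bases act as signals in heat stress.

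Total counts over named genes ranged from 12878893 to 17898833 in *tup1*, 14228301 to 17467516 in *cyc8*, 12643361 to 16874435 in *tup1 cyc8* and 14854146 to 15520064 in wt. *TUP1* was at 16.9 to 20.8 CPM (counts scaled to library size, after TMM scaling for library composition) in *tup1*, at 19.5 to 21.5 CPM in *tup1 cyc8* and at 455 to 480 CPM in wt. *CYC8* was at 7.31 to 9.33 CPM in *cyc8* and at 181 to 198 CPM in wt. In *tup1 cyc8* it was at 79.3 to 88.3 CPM, below wt but well above the *cyc8* strain. The count tables hold no positions, so which part of *CYC8* gave these reads was not analysed here, and the strain is called *tup1 cyc8* as labelled. *URA3*, which marks the *cyc8* deletion of that strain, was at 39.2 to 48.2 CPM there and at most 0.157 CPM elsewhere, *LEU2* and *MET15* (listed as *MET17*) had 0 counts in all 12 libraries, and *HIS3*, of which his3Δ1 removes only a part, was at 55.9 to 167 CPM. The 4 genes of **a** cells (*STE2*, *BAR1*, *MFA1*, *MFA2*) summed to 1308 to 1570 CPM in *tup1*, 603 to 686 CPM in *cyc8*, 956 to 1339 CPM in *tup1 cyc8* and 1108 to 1309 CPM in wt, while the 3 genes of alpha cells (*STE3*, *MF(ALPHA)1*, *MF(ALPHA)2*) summed to at most 5.75 CPM in any library. The first *cyc8* library stood apart, with a root mean square deviation of 0.303 from its strain's mean log2 level, against 0.132 to 0.236 in the other 11 libraries.

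*SUR2* (YDR297W), the sphinganine C4-hydroxylase, lies on chromosome IV at 1056551-1057600 of the R64 assembly, on the plus strand. Of 6 motifs searched in the members' windows of 250 bases before to 50 bases after the start codon, *SUR2* held only the sterol response element TCGTATA, read by Upc2p and Ecm22p. It had 2 matches, both on the minus strand, beginning 21 and 6 bases before the start codon, and the last base of the second is the A of that codon. The stretch of 30 bases that holds both, chrIV:1056526-1056555 on the plus strand, is shown with the matches in capitals.
SUR2: ggtgTATACGAaaagaaaaTATACGAtgaa
The element was in 1 of the 10 windows and in 4.15% of 6001 windows of protein-coding genes. The core of the Mig1p site (GGGG after C or T, itself after C or G) was in 2 of the 10 windows, those of *SCS7* and *YSR3*, and in 11.6% of all windows. Both stretches of 30 bases are on the minus strand, chrXIII:810997-811026 for *SCS7* and chrXI:535484-535513 for *YSR3*, with the match in capitals. They are printed because these genes had the highest fold changes against wt among the other 9. A link between the match and the level was not tested.
SCS7: tgtgcctattccGCGGGGccgttccgcgca
YSR3: aattaaagtaacGTGGGGactcttatttag
The Rox1p core ATTGTT was in 5 of the 10 windows and 35.2% of all windows, and the stress response element CCCCT in 2 of the 10 and 21.6% of all. The pleiotropic drug response element TCCGNGGA (1.22% of all windows) and the Gcn4p site TGACTC (7.98%) had no match in the 10 windows. Both strands were searched, and a match here is a description of the letters only.

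*SUR2* was at 87.4, 91.1 and 106 CPM in *tup1*, at 643, 611 and 683 CPM in *cyc8*, at 382, 351 and 338 CPM in *tup1 cyc8* and at 177, 187 and 136 CPM in wt. No 2 strains overlapped: *tup1* was lowest, then wt, then *tup1 cyc8*, and *cyc8* was highest. The log2 fold change against wt was -0.83 ± 0.14 (SE) in *tup1* cells, 1.95 ± 0.15 in *cyc8* cells and 1.11 ± 0.14 in *tup1 cyc8* cells, with 3 libraries per strain. In a population of cells, fewer cells that express a gene and less RNA per cell cannot be told apart.

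**Figure D1:**
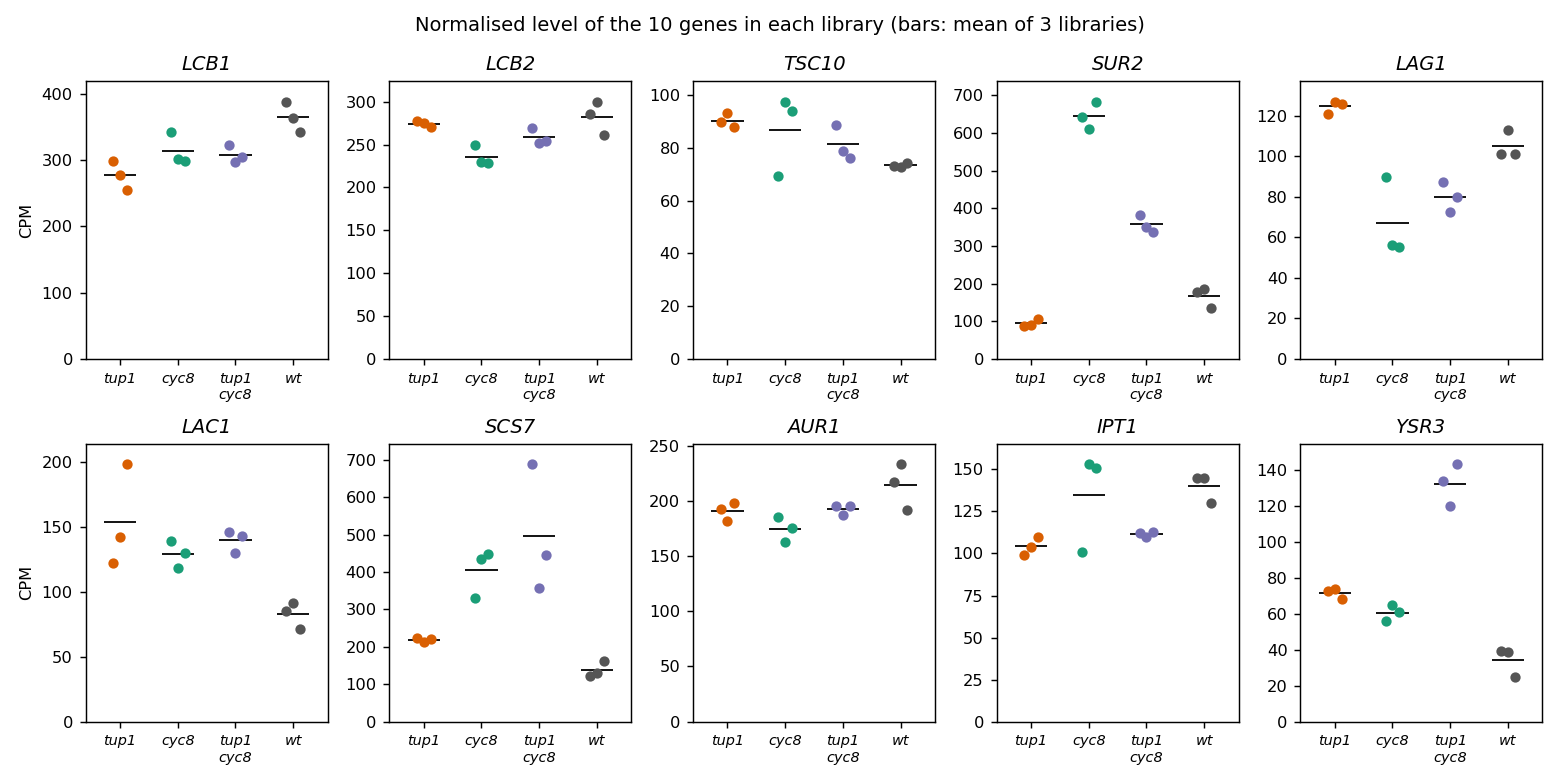
Level of each of the 10 genes (y axis, CPM from 0) in the 3 libraries of each strain (x axis), one point per library and a bar at the mean of 3. *SUR2* is at 611 to 683 CPM in *cyc8*, 338 to 382 CPM in *tup1 cyc8*, 87.4 to 106 CPM in *tup1* and 136 to 187 CPM in wt, a spread that none of the other 9 panels shows in this order.

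Between the mutants, *SUR2* was 6.80-fold higher in *cyc8* than in *tup1* (log2 difference 2.77 ± 0.14, SE). It was 0.553 times the *cyc8* level in *tup1 cyc8* (log2 difference -0.85 ± 0.13), and 3.76-fold higher in *tup1 cyc8* than in *tup1*. On the log2 scale, the change of *SUR2* in *tup1 cyc8* differed from the sum of the changes in *tup1* and *cyc8* by -0.04 ± 0.19 (SE). Strains without *TUP1* thus had a lower *SUR2* level by about the same log2 value. It was -0.83 with *CYC8* present and -0.85 for *tup1 cyc8* against *cyc8*. The latter strains carry *cyc8* deletions with different markers and differ in *CYC8* level, which cannot be told apart from the loss of *TUP1*. All these values of *SUR2* describe the gene that was selected on them.

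Per kilobase of gene, *SUR2* was at 90.4 ± 9.49 CPM in *tup1* (SD, n = 3), 615 ± 34.8 in *cyc8*, 340 ± 21.9 in *tup1 cyc8* and 159 ± 26.1 in wt. It ranked 8th of the 10 genes in *tup1*, 1st in *cyc8*, 2nd in *tup1 cyc8* and 4th in wt. In *tup1* its level was within 1 SD of *TSC10* just above it (93.7 ± 2.87 CPM per kilobase). In *tup1 cyc8* it was within 1 SD of *SCS7* above it (430 ± 148), and in wt within 1 SD of *LCB2* (167 ± 11.5) and *AUR1* (177 ± 17.2). In *cyc8* it was farther than 1 SD from the next gene, *SCS7* at 351 ± 54.9 CPM per kilobase. The share of *SUR2* in the summed CPM of the 10 genes was 5.51 to 6.48% in *tup1*, 27.4 to 29.4% in *cyc8*, 15.8 to 17.9% in *tup1 cyc8* and 9.09 to 11.2% in wt.

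None of the other 9 genes shared the opposite change. Genes were called with edgeR's quasi-likelihood test where the p adjusted by Benjamini-Hochberg across the whole table did not exceed 0.01. A change called in both single mutants and in opposite directions was found in 0 of the 9. Of the 5918 genes tested in both with *SUR2* left out, 0.0507% had it, which is 3 genes. With a share that low, 0 of 9 does not set these genes apart from the rest. DESeq2 also gave 0 of 9, and at an unadjusted p under 0.05 the count was 1, *LAG1*, whose values ran the other way. The share of all genes with opposite changes was not counted in either setting. The 3 genes called by edgeR were named after their values were seen. *MET1* and *MET14* of sulphate assimilation moved as *SUR2* did, and *VTC2*, a subunit of the vacuolar polyphosphate polymerase complex, moved in reverse. *MET14* was at 12.7 to 16.0 CPM in *tup1*, 48.2 to 80.7 CPM in *cyc8*, 23.7 to 62.8 CPM in *tup1 cyc8* and 21.2 to 25.2 CPM in wt. All strains lack *MET15*, a gene of the same sulphur pathway.

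Against wt, 3 of the 9 genes were higher and 0 lower in *tup1*, where 10.5% of all genes tested were called higher and 3.73% lower. In *cyc8* 2 were higher and 0 lower, against 16.3% and 5.66% of all genes. In *tup1 cyc8* 3 were higher and 0 lower, against 21.0% and 13.6% of all genes. At an unadjusted p under 0.05, 2 were lower in *tup1* cells, 2 in *cyc8* cells and 3 in *tup1 cyc8* cells. The share of all genes at that limit was not counted. DESeq2 called 2, 1 and 2 of the 9 lower, against 338 of 5927, 733 of 5954 and 1028 of 5942 genes tested. The median log2 fold change of the 9 genes was 0.23 in *tup1* cells, -0.05 in *cyc8* cells and -0.12 in *tup1 cyc8* cells, beside -0.03 over all genes tested in each of the 3 comparisons. The 3 comparisons share the same wt libraries. Without the first *cyc8* library, 3 of the 9 genes were higher in *cyc8*, with *TSC10* added (log2 fold change 0.37, edgeR adjusted p = 0.0091), and *LAG1* was lower. Of all genes tested, 1263 of 5975 were then higher and 1053 lower in *cyc8*. The opposite changes stayed at 0 and *SUR2* was at 1.94 in *cyc8*. Scaling by library size alone moved the median of all genes by more than 0.1, to -0.157 in *tup1* cells, -0.381 in *cyc8* cells and -0.498 in *tup1 cyc8* cells, and the values here are relative to the TMM scaling.

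**Figure D2:**
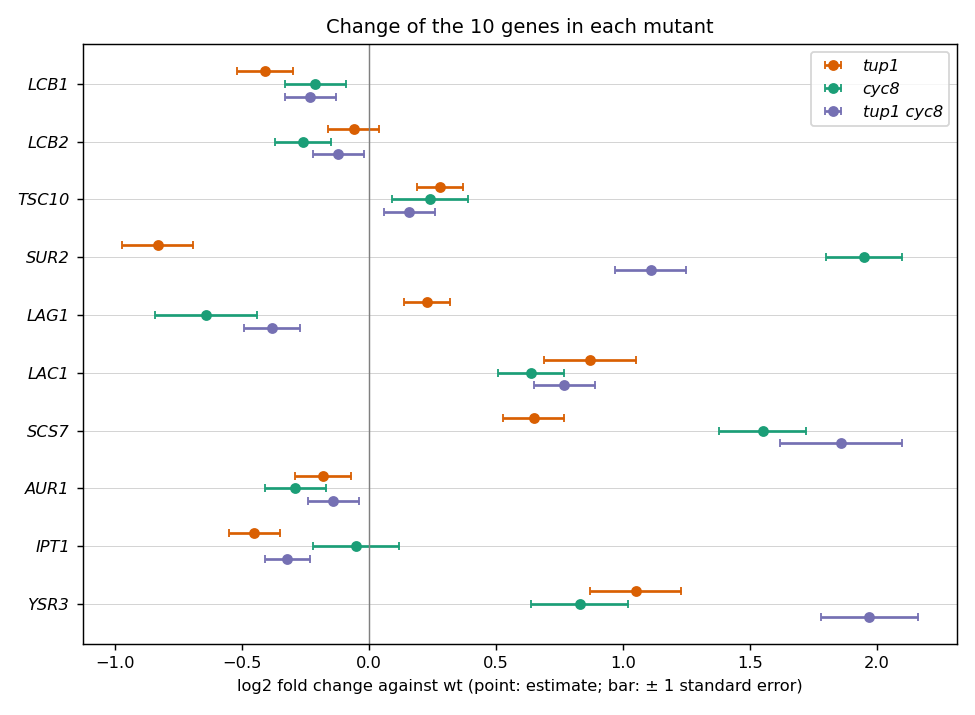
Log2 fold change against wt (x axis) of the 10 genes (y axis) in *tup1*, *cyc8* and *tup1 cyc8*, with a bar of 1 standard error to each side. *SUR2* is at -0.83 in *tup1* and 1.95 in *cyc8*, whereas *LAC1*, *SCS7* and *YSR3* lie above 0 in all 3 mutants.

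The genes of the first steps moved little. *LCB1* (YMR296C, chromosome XIII, 859215-860891, minus strand) and *LCB2* (YDR062W, chromosome IV, 576474-578159, plus strand) encode the catalytic pair of serine palmitoyltransferase. *LCB1* was at 299, 277 and 255 CPM in *tup1*, 342, 302 and 298 CPM in *cyc8*, 323, 297 and 304 CPM in *tup1 cyc8* and 388, 363 and 342 CPM in wt. The 3 *tup1* libraries lay below all wt libraries, with a log2 fold change of -0.41 ± 0.11 (SE) that did not pass edgeR's test (adjusted p = 0.026), while DESeq2 gave an adjusted p of 0.005. *LCB2* had log2 fold changes of -0.06 in *tup1* cells, -0.26 in *cyc8* cells and -0.12 in *tup1 cyc8* cells, none of which passed. *TSC10* (YBR265W, chromosome II, 738582-739544, plus strand), the reductase of the next step, was at 87.8 to 93.2 CPM in *tup1*, 69.2 to 97.5 CPM in *cyc8*, 76.2 to 88.8 CPM in *tup1 cyc8* and 72.9 to 74.2 CPM in wt. Its log2 fold changes of 0.28, 0.24 and 0.16 in *tup1*, *cyc8* and *tup1 cyc8* did not pass, and with library size alone as the scaling its values in *cyc8* and *tup1 cyc8* were -0.12 and -0.32.

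The ceramide synthase genes *LAG1* (YHL003C, chromosome VIII, 100648-101883, minus strand) and *LAC1* (YKL008C, chromosome XI, 427295-428551, minus strand) encode alternative catalytic subunits. Against wt, edgeR called *LAC1* higher in every mutant and *LAG1* in none, while DESeq2 called *LAG1* lower in *cyc8* and *tup1 cyc8*. *LAC1* was at 122, 142 and 198 CPM in *tup1*, 139, 118 and 130 CPM in *cyc8*, 146, 130 and 143 CPM in *tup1 cyc8* and 85.5, 91.6 and 71.4 CPM in wt. All 9 mutant libraries were above all 3 wt libraries. *LAC1* rose in *tup1* (log2 fold change 0.87 ± 0.18, SE, edgeR adjusted p = 0.009), with values of 0.64 ± 0.13 for *cyc8* (adjusted p = 0.0076) and 0.77 ± 0.12 for *tup1 cyc8* (adjusted p = 0.0011), which passed as well. The calls in the single mutants were close to the limit: leaving out any wt library, or *tup1* library 2 or 3, raised the adjusted p in *tup1* to 0.013 to 0.029, and leaving out any wt library, or *cyc8* library 2 or 3, raised it in *cyc8* to 0.015 to 0.033. With library size alone as the scaling, the value of *LAC1* was 0.29 in the *cyc8* strain (adjusted p = 0.12) and 0.29 in the double mutant (adjusted p = 0.042). With the replicate number as a block, the calls of *LAC1* in *tup1* and *cyc8* were lost (edgeR adjusted p = 0.02 and 0.026).

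*LAG1* was at 121, 127 and 126 CPM in *tup1*, 89.7, 56.5 and 55.4 CPM in *cyc8*, 87.5, 72.5 and 79.7 CPM in *tup1 cyc8* and 101, 113 and 101 CPM in wt. Its strain means were highest in *tup1* and lowest in *cyc8*, the reverse of the order of the *SUR2* means, and the first *cyc8* library lay above all *tup1 cyc8* libraries. Against wt its log2 fold changes of 0.23 ± 0.09 in *tup1* cells, -0.64 ± 0.20 in *cyc8* cells and -0.38 ± 0.11 in *tup1 cyc8* cells (SE) did not pass edgeR's test, with adjusted p of 0.11, 0.035 and 0.018. Without the first *cyc8* library, the one that stood apart, the value in *cyc8* was -0.92 with an adjusted p of 0.00037. In the direct comparison *LAG1* was lower in *cyc8* than in *tup1* (log2 difference -0.89 ± 0.16, edgeR adjusted p = 0.002), a call that was lost without *cyc8* library 2 or 3 (adjusted p = 0.011 in each case) and in a fit of the 6 libraries of both mutants (adjusted p = 0.014).

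The share of *LAC1* in the summed CPM of *LAG1* and *LAC1* was 50.1, 52.8 and 61.2% in *tup1*, 60.8, 67.6 and 70.1% in *cyc8*, 62.5, 64.2 and 64.3% in *tup1 cyc8* and 41.4 to 45.9% in wt. The share was above wt in every mutant library. Summed, the pair was at 243 to 324 CPM in *tup1*, 175 to 229 CPM in *cyc8*, 203 to 234 CPM in *tup1 cyc8* and 172 to 205 CPM in wt.

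**Figure D3:**
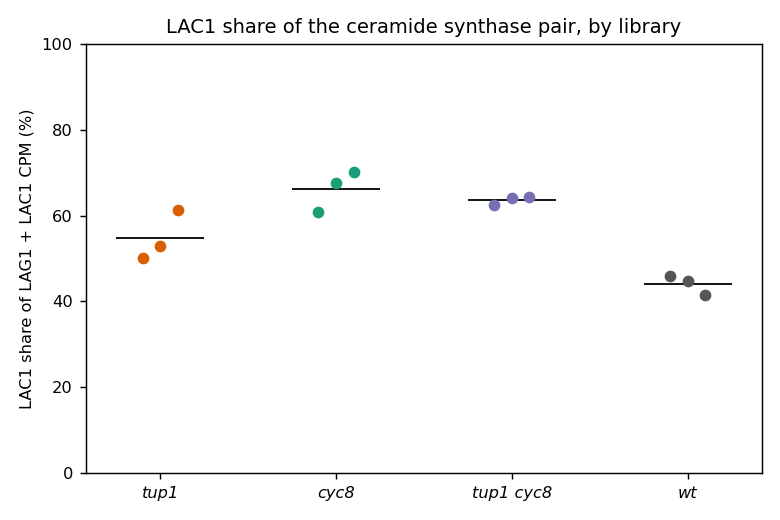
Share of *LAC1* in the summed CPM of *LAG1* and *LAC1* (y axis, percent from 0 to 100) in the 3 libraries of each strain (x axis), one point per library and a bar at the mean. The mutant libraries lie between 50.1 and 70.1% and the wt libraries between 41.4 and 45.9%.

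*SCS7* (YMR272C, chromosome XIII, 809623-810777, minus strand) encodes the second hydroxylase of the pathway, which acts on the fatty acid of ceramide. It was at 225, 213 and 220 CPM in *tup1*, 332, 435 and 448 CPM in *cyc8*, 688, 357 and 446 CPM in *tup1 cyc8* and 122, 130 and 162 CPM in wt. The 3 mutants lay above wt in every library, *tup1* below the other mutants, and *tup1 cyc8* overlapped *cyc8*. *SCS7* rose in every mutant, by a log2 fold change of 0.65 ± 0.12 (SE) for *tup1* (edgeR adjusted p = 0.0055), 1.55 ± 0.17 for *cyc8* (adjusted p = 0.00033) and 1.86 ± 0.24 for *tup1 cyc8* (adjusted p = 0.00039). Like *SUR2* it was higher in *cyc8* than in *tup1*, by 0.88 ± 0.21 on the log2 scale (adjusted p = 0.0079), but it was above wt in *tup1*, where *SUR2* was below wt. The call in *tup1* was lost without wt library 1 or 2 or without any of the *tup1* libraries (adjusted p between 0.016 and 0.031), in the fit of all 12 libraries (adjusted p = 0.036) and with library size alone (adjusted p = 0.016). The call between *cyc8* and *tup1* was lost without any *tup1* library, *cyc8* library 2 or 3, wt library 1 or 2 or *tup1 cyc8* library 3 (adjusted p between 0.011 and 0.036). Set against each other within a library, the CPM of *SCS7* was 2.08 to 2.57 times that of *SUR2* in *tup1*, 0.517 to 0.713 times in *cyc8*, 1.02 to 1.80 times in *tup1 cyc8* and 0.689 to 1.19 times in wt.

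Neither of the 2 genes of the head group steps was called against wt by edgeR. *AUR1* (YKL004W, chromosome XI, 435580-436785, plus strand), the inositol phosphorylceramide synthase, was at 182 to 198 CPM in *tup1*, 163 to 185 CPM in *cyc8*, 187 to 195 CPM in *tup1 cyc8* and 192 to 233 CPM in wt, and no difference from wt passed the test (log2 fold changes -0.18, -0.29 and -0.14). *IPT1* (YDR072C, chromosome IV, 589761-591344, minus strand) adds the terminal inositol phosphate. It was at 99.2, 104 and 110 CPM in *tup1*, 101, 153 and 151 CPM in *cyc8*, 112, 110 and 113 CPM in *tup1 cyc8* and 145, 145 and 130 CPM in wt. The *tup1* and *tup1 cyc8* libraries lay below all wt libraries, and the *cyc8* libraries split, the first at the *tup1* level and the others above wt. The log2 fold change in *tup1* was -0.45 ± 0.10 (SE), just past the limit for edgeR's adjusted p of 0.01 and so not called, whereas DESeq2 gave an adjusted p of 0.0012. In *cyc8* it was -0.05 ± 0.17 and, without the first *cyc8* library, 0.10. In *tup1 cyc8* it was -0.32 ± 0.09 (edgeR adjusted p = 0.019), while DESeq2 gave an adjusted p of 0.0083.

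*YSR3* (YKR053C, chromosome XI, 534067-535281, minus strand) encodes a phosphatase of long chain base phosphates. It was at 72.9, 73.9 and 68.1 CPM in *tup1*, 55.9, 65.1 and 60.7 CPM in *cyc8*, 134, 120 and 143 CPM in *tup1 cyc8* and 39.1, 38.8 and 24.6 CPM in wt. Each mutant lay above wt without overlap, and *tup1 cyc8* above both single mutants. *YSR3* rose in *tup1* (log2 fold change 1.05 ± 0.18, SE, edgeR adjusted p = 0.003) and, further, in *tup1 cyc8* (1.97 ± 0.19, adjusted p = 7.1e-05). In *cyc8* the value of 0.83 ± 0.19 fell short of the limit (adjusted p = 0.011), while DESeq2 gave 0.00039 and the fit of all 12 libraries 0.00093. The call in *tup1* was lost without any of its 3 libraries (adjusted p between 0.011 and 0.018).

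Between the mutants, 1 of the 9 genes was higher (*SCS7*) and 1 lower (*LAG1*) in *cyc8* than in *tup1*, where 9.77% of all genes tested were higher and 5.00% lower. In *tup1 cyc8* against *cyc8* 1 gene was higher (*YSR3*, log2 difference 1.13 ± 0.16, SE, edgeR adjusted p = 0.00053) and 0 were lower, against 3.09% and 0.801% of all genes. Both counts were the same at an unadjusted p under 0.05 and with DESeq2, which called 343 of 5995 genes higher and 174 lower. In *tup1 cyc8* against *tup1* 2 genes were higher, *SCS7* (1.18 ± 0.21, adjusted p = 0.0016) and *YSR3* (0.89 ± 0.16, adjusted p = 0.0015), and 0 lower, against 9.26% and 4.62% of all genes. With DESeq2, 485 of 5995 genes were lower in that comparison. *LAG1* was the 1 gene of the 9 lower there, also at an unadjusted p under 0.05, with a log2 difference of -0.64 (edgeR adjusted p = 0.012). In a fit of these 6 libraries alone it was called lower (-0.66, edgeR adjusted p = 0.0014), also with the replicate number as a block (-0.67, adjusted p = 0.0017), but not with the block over all 12 libraries (-0.65, adjusted p = 0.013). The change in *tup1 cyc8* differed from the sum of the single changes in 0 of the 9 genes with edgeR, against 9.11% of all genes. With DESeq2 it was 0 of the 9, against 244 of 5995 genes above the sum and 571 below it. At an unadjusted p under 0.05 it was 3, without a share counted over all genes. The largest such difference among the 9 was that of *LAC1*, -0.78 ± 0.23 on the log2 scale (adjusted p = 0.035). Without the first *cyc8* library, *IPT1* was also higher in *cyc8* than in *tup1* (0.54, adjusted p = 0.00056) and lower in *tup1 cyc8* than in *cyc8* (-0.48, adjusted p = 0.003). *LAG1* was then lower in *tup1 cyc8* than in *tup1* and higher than in *cyc8* (0.49, adjusted p = 0.0062), and *TSC10* differed from the sum of the single changes (-0.55, adjusted p = 0.0066).

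Of 28 further genes of the pathway, listed by role, 8 were called against wt in at least 1 mutant and 20 in none, while 39.6% of all 5911 genes tested in the 3 comparisons were called in at least 1. In *tup1* 5 were higher and 0 lower, against 10.5% and 3.73% of all genes. In *cyc8* 4 were higher and 1 lower, against 16.3% and 5.66%, and in *tup1 cyc8* 6 were higher and 0 lower, against 21.0% and 13.6%. At an unadjusted p under 0.05, 9, 9 and 14 were higher in *tup1*, *cyc8* and *tup1 cyc8*, and 3, 4 and 2 were lower. The share of all genes at that limit was not counted. DESeq2 called 6, 5 and 7 of the 28 higher, against 834 of 5927, 1261 of 5954 and 1445 of 5942 genes tested. It called 1 (*PKH2*), 2 (*PKH2* and *YPK1*) and 0 lower, against 338, 733 and 1028 genes. Without the first *cyc8* library 12 of the 28 were called in at least 1 mutant, a share not counted over all genes. In *cyc8* itself, 1263 of 5975 genes were then higher and 1053 lower. The median log2 fold change of the 28 was 0.15 in *tup1* cells, 0.10 in *cyc8* cells and 0.27 in *tup1 cyc8* cells. The 3 genes of the serine palmitoyltransferase subunit and inhibitors (*TSC3*, *ORM1*, *ORM2*), the ceramide synthase subunit *LIP1* and the 5 genes of very long chain fatty acid elongation held no call against wt, with log2 fold changes between -0.47 and 0.70.

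Among the 4 genes of head group addition, *SUR1* and *CSH1*, which encode alternative catalytic subunits of the mannosyltransferase, rose in all 3 mutants. *SUR1* was at 245 to 265 CPM in *tup1*, 262 to 343 CPM in *cyc8*, 277 to 307 CPM in *tup1 cyc8* and 89.8 to 165 CPM in wt, with log2 fold changes of 1.05, 1.33 and 1.26 (edgeR adjusted p = 0.0059, 0.0035 and 0.0014). *CSH1* was at 35.0 to 42.4 CPM in *tup1*, 31.9 to 33.0 CPM in *cyc8*, 28.6 to 36.5 CPM in *tup1 cyc8* and 16.4 to 21.1 CPM in wt, with log2 fold changes of 1.04, 0.83 and 0.88. Leaving out wt library 1 or 2 ended the calls of *SUR1* in *tup1* and *cyc8* and that of *CSH1* in *cyc8*, and leaving out any *tup1* library, or *cyc8* library 2 or 3, ended those of *SUR1* in that strain (adjusted p between 0.011 and 0.028 in all these cases). With library size alone, *CSH1* was at 0.48 in *cyc8* and 0.40 in *tup1 cyc8*, without a call.

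The highest fold changes on the list were those of *RSB1*, which encodes a membrane protein for the export of long chain bases, and *YPC1*, an alkaline ceramidase that breaks down phytoceramide. *RSB1* was at 95.7, 79.1 and 89.6 CPM in *tup1*, 117, 230 and 235 CPM in *cyc8*, 309, 221 and 255 CPM in *tup1 cyc8* and 11.7 to 12.5 CPM in wt. Its log2 fold change was 2.85 ± 0.11 in *tup1* cells, 4.0 ± 0.29 in *cyc8* cells and 4.45 ± 0.15 in *tup1 cyc8* cells (SE, edgeR adjusted p = 4.4e-07, 4e-05 and 2e-07). *YPC1* was at 59.5 to 89.9 CPM in *tup1*, 41.6 to 63.9 CPM in *cyc8*, 61.4 to 82.1 CPM in *tup1 cyc8* and 8.38 to 13.8 CPM in wt, and rose in each mutant (2.75, 2.35 and 2.81). *LCB3*, the other phosphatase of long chain base phosphates, rose in *tup1* (0.73 ± 0.15, adjusted p = 0.0093), a call lost without wt library 1 or 2 or without any *tup1* library (adjusted p between 0.015 and 0.043). Its values in *cyc8* and *tup1 cyc8*, 0.33 and 0.55, did not pass edgeR's test (adjusted p = 0.13 and 0.011), while in *tup1 cyc8* DESeq2 gave an adjusted p of 0.0022 and edgeR without wt library 3 gave 0.003.

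**Figure D4:**
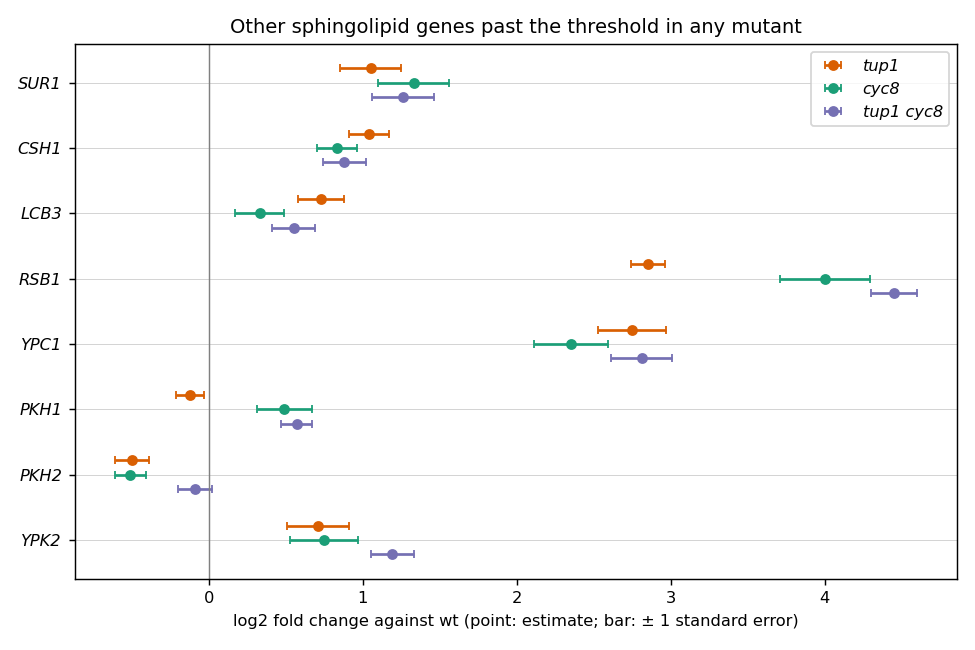
Log2 fold change against wt (x axis) of the 8 further pathway genes called in at least 1 mutant (y axis) in *tup1*, *cyc8* and *tup1 cyc8*, with a bar of 1 standard error to each side. *RSB1* at 2.85 to 4.45 and *YPC1* at 2.35 to 2.81 lie farthest from 0, *PKH2* lies below 0 in all 3 mutants, and *PKH1* lies at -0.12 for the *tup1* strain, 0.49 for *cyc8* and 0.57 for *tup1 cyc8*.

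Of the 6 kinases and regulators, *PKH1* and *YPK2*, kinases of the cascade that long chain bases stimulate, rose in *tup1 cyc8* (log2 fold changes 0.57 and 1.19, edgeR adjusted p = 0.0019 and 0.00029). *PKH1* lost its call without wt library 1 (adjusted p = 0.012), and its value with library size alone as the scaling was 0.09. In the single mutants *PKH1* was at -0.12 in *tup1* and 0.49 in *cyc8*, neither of which passed edgeR's test (adjusted p = 0.33 and 0.055). Without the first *cyc8* library its value in *cyc8* was 0.66 (adjusted p = 0.00095). The value of *PKH1* in *tup1* had a 95% interval from -0.29 to 0.05, so a lower level there, as in *SUR2*, was not shown. *YPK2* was at 0.71 in *tup1* and 0.75 in *cyc8*, which did not pass edgeR's test (adjusted p = 0.031 and 0.03), while DESeq2 called both (adjusted p = 0.0026 and 0.007). *YPK1*, named after its values were seen, was at 133, 79.7 and 82.6 CPM in *cyc8* and 155 to 166 CPM in wt. Its log2 fold change of -0.69 in *cyc8* did not pass edgeR's test (adjusted p = 0.029), while DESeq2 called it lower. DESeq2 also called *YPK1* higher in *tup1 cyc8* than in *cyc8*. *PKH2*, the paralogue of *PKH1*, fell in *cyc8* (-0.51 ± 0.10, adjusted p = 0.0066), and this call was lost without any wt library and without *cyc8* library 2 or 3 (adjusted p between 0.012 and 0.039). It was also lost with the replicate number as a block (adjusted p = 0.034). In *tup1* the value of *PKH2* was nearly the same, -0.50 (edgeR adjusted p = 0.013). DESeq2 called *PKH2* lower in *tup1* (adjusted p = 0.0047), as did edgeR's fit of all 12 libraries (adjusted p = 0.0077). Between *cyc8* and *tup1* its log2 difference was -0.03.

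Directly between the single mutants, 3 of the 28 genes were higher in *cyc8* than in *tup1* and 0 lower: *RSB1* (log2 difference 1.14), *PKH1* (0.60) and *ORM2* (1.01 ± 0.24, SE, edgeR adjusted p = 0.0077), the last named after its values were seen. Of all genes tested, 9.77% were higher and 5.00% lower in that comparison. At an unadjusted p under 0.05, 6 of the 28 were lower, without a share counted over all genes. DESeq2 called 0 of the 28 lower, against 512 of 5995 genes tested. *ORM2*, an inhibitor of serine palmitoyltransferase, was at 142, 331 and 306 CPM in *cyc8*, 126, 124 and 136 CPM in *tup1* and 173, 147 and 162 CPM in wt. Its strain means had the order of *SUR2*, 129 CPM in *tup1*, 260 CPM in *cyc8*, 194 CPM in *tup1 cyc8* and 160 CPM in wt. Its log2 fold changes against wt had the same signs, -0.34 in *tup1* and 0.70 in *cyc8*, but neither passed (adjusted p = 0.042 and 0.09), and the first *cyc8* library lay below all wt libraries. Without that library the value of *ORM2* in *cyc8* was 0.97 against wt, with an adjusted p of 0.00043.

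Of the genes beside *SUR2*, *MHR1* was called against wt in no mutant. *ATP5* shared the rise of *SUR2* in *cyc8* and *tup1 cyc8* but not its lower level in *tup1*. *MHR1* (YDR296W), a mitochondrial recombination protein on the same strand whose gene ends 658 bases before *SUR2*, was at 26.2 to 33.7 CPM in *tup1*, 28.7 to 30.3 CPM in *cyc8*, 24.8 to 33.2 CPM in *tup1 cyc8* and 27.0 to 32.2 CPM in wt. *ATP5* (YDR298C), a subunit of the mitochondrial ATP synthase that ends 575 bases beyond *SUR2* on the opposite strand, was at 82.6, 105 and 113 CPM in *tup1*, 182, 133 and 160 CPM in *cyc8*, 150, 141 and 144 CPM in *tup1 cyc8* and 61.9, 69.5 and 80.4 CPM in wt. *ATP5* rose in *cyc8* (log2 fold change 1.17 ± 0.16, SE, edgeR adjusted p = 0.001), also in the double mutant (1.05 ± 0.12, adjusted p = 0.00016), and its value in *tup1* was 0.48 (adjusted p = 0.041), on the other side of 0 from *SUR2*. It was also higher in *cyc8* than in *tup1* (log2 difference 0.66 ± 0.15, edgeR adjusted p = 0.0058).

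Over 5039 genes with a mean of at least 10 CPM, likeness to *SUR2* was measured as the distance between the 3 log2 fold changes against wt in the fit of 12 libraries, where *SUR2* had -0.81 in *tup1* cells, 1.95 in *cyc8* cells and 1.10 in *tup1 cyc8* cells. The closest gene was *SER3*, which encodes the enzyme of the first step of serine synthesis, at a distance of 0.24. It had log2 fold changes of -0.72 in *tup1* cells, 2.01 in *cyc8* cells and 0.88 in *tup1 cyc8* cells. The next were *YKR075C* (distance 0.53), *MET2* of methionine synthesis (0.54), the glucose-responsive repressor gene *MIG2* (0.54) and the kinase gene *SKS1* (0.56). Their log2 fold changes were -0.30 to -0.48 in *tup1*, 1.55 to 2.06 in *cyc8* and 0.84 to 1.20 in *tup1 cyc8*. By the distance over the 12 libraries, *SER3* ranked 13th and *YKR075C* 141st, while the other 3 stayed among the 5 closest. Of the other 9 sphingolipid genes, *SCS7* was closest, at rank 335 with a distance of 1.71, and *LAG1* farthest, at rank 4412 with a distance of 3.17.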

How the data were processed

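RNA-seq libraries of 4 strains with 3 biological replicates each were compared. The authors extracted RNA with hot phenol, depleted rRNA, made strand-specific libraries, trimmed reads with Trimmomatic 0.36, mapped them to S288c with STAR 2.5.2b and obtained unique gene hits with featureCounts of Subread 1.5.2. They deposited the raw counts per gene without normalisation, in 3 tables that repeat the same wt libraries. The strand setting of the counting is not given in the sources used here, but no annotated gene overlaps any of the 10 genes, and none of their stretches of 31 bases occurs elsewhere in the genome. The normalised tables were not used here. A line without a gene name held 0.0647 to 0.340% of the counts and was left out.

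Counts were filtered with filterByExpr, scaled with TMM and tested with edgeR 4.0.16 (R 4.3.3, limma 3.58.1) by glmQLFit and glmQLFTest, with Benjamini-Hochberg adjustment over all genes tested and a limit of 0.01. Comparisons with wt used the 6 libraries concerned. Those between mutants, and the contrast of *tup1 cyc8* with the summed single changes, used all 12. The standard error was taken as the ratio of the log2 fold change to the root of its F statistic. The steps were tested on simulated data. Alternatives were DESeq2 1.42.0, RLE factors, library size alone, no filter, at least 10 counts in every library, an adjusted p of at most 0.05, a further limit of 2-fold, the other fit, the replicate number as a block and leaving out each library. Python 3.11.15 with pandas 2.3.3, numpy 2.4.6 and matplotlib 3.10.9 made tables and plots. Names, coordinates and sequence are from RefSeq (R64); the count tables carry no coordinates, and the release the authors mapped to is not given in the sources used here.

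Named were the 10 genes, each further pathway gene called against wt, the neighbours of *SUR2*, the deleted and marker genes, and the 5 genes closest to *SUR2*. The genes, the lists and the tests were chosen with earlier results of these data known. Same-number libraries of *tup1* and *tup1 cyc8* deviated together (r = 0.189, 0.334 and 0.222). The main test used no block, and a block with these 6 libraries alone, their numbers taken as pairs, was an alternative chosen after seeing the data. For *cyc8* with *tup1 cyc8* the same-number r was 0.0464, 0.0855 and 0.0294, and for *tup1* with *cyc8* it was 0.00342, 0.0113 and 0.222. Between wt and each mutant, r was below 0 for at least 1 number. For wt with *tup1* it was 0.344, -0.14 and 0.241.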

Additional observations from a re-analysis of the deposited data

Results flagged for a closer look

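For 5 of the 28 further pathway genes, the change in *tup1 cyc8* differed from the sum of the changes in *tup1* and *cyc8* (edgeR's quasi-likelihood test of the interaction, Benjamini-Hochberg adjusted p of at most 0.01). The *cyc8* deletions of *cyc8* and *tup1 cyc8* carry different markers, and *CYC8* averaged 8.5 CPM in *cyc8* and 84.2 CPM in *tup1 cyc8*. A different effect of losing *TUP1* and a difference between these deletions cannot be told apart here. The log2 difference was -2.43 for *RSB1* (adjusted p = 0.00014), -2.32 for *YPC1* (adjusted p = 0.00017), -1.15 for *SUR1* (adjusted p = 0.0081) and -1.02 for *CSH1* (adjusted p = 0.0018), so each rose less in *tup1 cyc8* than the single changes add up to. For *PKH2* it was 0.88 (adjusted p = 0.0018), with 34.5 CPM in *tup1 cyc8*, 26.6 CPM in *tup1*, 26.0 CPM in *cyc8* and 37.0 CPM in wt on average. Of all genes tested, 9.11% differed in this way.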

How the results depend on the processing

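Among the 9 genes, the count of opposite changes was 0 under every alternative run, and the count higher in *tup1 cyc8* than in wt was 3 except for 2 with library size alone and 2 with the 2-fold limit. Scaling by library size alone, which moves the median of all genes, changed most counts. It gave 1 gene higher and 1 lower in *tup1*, against 514 and 368 of all 5927 genes tested. In *cyc8* 1 was higher and 3 lower, against 725 and 1617 of 5954. In *tup1 cyc8* 5 were lower, against 2959 of 5942. For *cyc8* against *tup1* 0 were higher, against 331 of 5995. For *tup1 cyc8* against *tup1* 1 was higher and 2 lower, against 300 and 1431 of 5995. Of all genes tested, DESeq2 called 338 lower in *tup1*, 733 in *cyc8*, 1028 in *tup1 cyc8* and 485 in *tup1 cyc8* against *tup1*. Of the 9 genes it called 2, 1, 2 and 1. Relaxing the adjusted p to 0.05 gave 2, 1, 2 and 1 for the same counts and 1 gene that differed from the sum of the single changes. A further limit of 2-fold left 1 gene higher in *tup1*, 1 in *cyc8*, none in either direction (0 and 0) between *cyc8* and *tup1*, and 1 higher in *tup1 cyc8* than in *tup1*. The shares of all genes at these limits were not counted. The fit of all 12 libraries gave 2 genes higher in *tup1*, against 632 of all 5995 genes tested, and 1 lower in *cyc8*, against 765. The fit of both mutants alone gave 0 lower in *cyc8* than in *tup1*, against 127 of 5946. It gave 1 lower in *tup1 cyc8* than in *tup1*, against 394 of 5930. The replicate block was also run over 12 libraries, and over a mutant and wt, whose same-number libraries did not deviate together in every number. It left 2 genes higher in *tup1* and 1 in *cyc8*, the calls of *LAC1* being lost (edgeR adjusted p = 0.02 and 0.026), and 0 higher in *cyc8* than in *tup1*. Of all genes tested, 617 of 5927, 778 of 5954 and 534 of 5995 were higher in these comparisons with the block. For the paired *tup1* and *tup1 cyc8* libraries the fit of those 6 gave 1 gene lower with the block and 1 without it, and the block over 12 libraries gave 0. Of all genes tested, 523 and 394 of 5930 were lower in the fits of 6, and 279 of 5995 with the block over 12.

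Leaving out each library gave 0 to 2 genes higher and 0 to 1 lower in *tup1*, 1 to 3 higher and 0 to 1 lower in *cyc8*, 0 to 1 lower in *tup1 cyc8*, 0 to 2 higher and 0 to 1 lower for *cyc8* against *tup1*, 1 to 2 higher and 0 to 1 lower in *tup1 cyc8* than in *cyc8*, 0 to 1 lower in *tup1 cyc8* than in *tup1*, and 0 to 1 that differed from the sum of the single changes. Of the 5940 to 6019 genes tested, 420 to 820 were then higher and 99 to 353 lower in *tup1*. In *cyc8* 605 to 1263 were higher and 108 to 1053 lower, and in *tup1 cyc8* 292 to 934 were lower. For *cyc8* against *tup1* it was 306 to 916 and 107 to 826. For *tup1 cyc8* against *cyc8* it was 119 to 397 and 20 to 302. Against *tup1* 100 to 571 were lower in *tup1 cyc8*. Above the sum of the single changes were 89 to 337, and below it 311 to 594. The further pathway genes called against wt numbered 15 with library size alone, 17 at an adjusted p of at most 0.05, 5 with the 2-fold limit and 5 to 12 without a library. The share of all genes called in at least 1 mutant was not counted in these settings. Values that changed sign were uncalled: *TSC10* in *cyc8* and *tup1 cyc8* (-0.12 and -0.32) and *LCB3* in *cyc8* (-0.01) with library size alone, *IPT1* in *cyc8* (-0.16 to 0.10 without a library), and *MHR1*, at 0.00 in *tup1* with no filter, and without a library at -0.10 to 0.06 in *tup1*, -0.11 to 0.01 in *cyc8* and -0.18 to 0.02 in *tup1 cyc8*. *SUR2* kept its signs against wt, with 1.60 in *cyc8* and 0.64 in *tup1 cyc8* under library size alone. By the distance over 12 libraries, 3 of the 5 genes closest to *SUR2* were the same, and *SER3*, the closest in the report, was not among them. The causes of these differences were not tested. With 3 libraries a strain, changes near the limit depend on single libraries.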
